A study of Homo sapiens with 8 samples.

Results

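Voltage-gated potassium channel genes were examined for H3K27me3 and H3K4me3 in PC9 cells. The members were a list of 35 gene symbols set by the function of their products, and not by values measured in these libraries. All 35 were found among the 20136 protein-coding genes of the annotation used, and the remaining genes of the family were not analysed here. The list held 8 genes of the Kv1 (Shaker) class, 6 of the Kv2 to Kv4 classes, 3 of the Kv7 (KCNQ) class, 8 of the Kv10 to Kv12 (KCNH) classes and 10 genes of modulatory subunits.

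PC9 cells, a line of human lung adenocarcinoma, were grown with DMSO as vehicle or with 1 μM GSK126, a small molecule inhibitor of EZH2, for 5 days. Each treatment had 2 libraries of H3K27me3 and 2 of H3K4me3, 8 in all, and chromatin of D. melanogaster had been added to each as a reference for normalization. Islands are stretches enriched for tags, and they had been called in each library separately, on hg19 (GRCh37), after spike-in or after standard normalization. For spike-in normalization the DMSO libraries kept all tags and the GSK126 libraries were thinned by the correction factor, whereas standard normalization gave both libraries of a replicate the same number of human tags.

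Voltage-gated potassium channels open when the membrane depolarizes, and the outward flow of potassium ends the action potential and sets the firing of neurons and muscle. Pore-forming subunits of the Kv1, Kv2 to Kv4, Kv7 and Kv10 to Kv12 classes assemble as tetramers, whereas modulatory subunits form no channel alone and change the gating of Kv2 channels that they join. H3K27me3 is deposited by Polycomb repressive complex 2, whose catalytic subunit is EZH2, and covers genes that are silent in a lineage, whereas H3K4me3 marks the starts of active or poised genes.

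The measure was the length under islands in the gene and the 2000 bp before its start, in kb or as a share of that region. A promoter island was one that overlapped the 2000 bp on either side of the gene start by at least 1 bp. A member was called lower only when both GSK126 values lay below both DMSO values. With 2 replicates the smallest p that an exact sign-flip test can give is 0.5, so no test was made and the values of each library are given instead.

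The density of tags behind a list, read from the island scores, was 1.65 and 2.33 tags per 200-bp window in the H3K27me3 DMSO libraries of replicates 1 and 2, and 0.382 and 0.455 with GSK126 after spike-in normalization. These were 23.1% and 19.6% of DMSO. After standard normalization both treatments had 1.36 in replicate 1 and 1.55 in replicate 2. The H3K4me3 libraries of replicate 2 were shallow, with 0.302 with DMSO against 1.77 in replicate 1, and GSK126 stood at 83.6% and 86.9% of DMSO after spike-in normalization. A covered length therefore holds both the level of the mark and the number of tags left in the list, which cannot be told apart from these files. Of 8 markers of lung adenocarcinoma and epithelium, 5 had an H3K4me3 promoter island in both DMSO libraries (KRT7, KRT8, KRT18, CDH1 and NKX2-1), and EPCAM, NAPSA and SFTPB had none in that window. So did 2 of 5 markers of other cells (COL1A1 and CDH5) and 3 of 4 of neurons (MAP2, SYT1 and SNAP25).

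At their starts, the members differed in sequence as well as in marks. The stretch of 250 bases before the start is shown for 5 genes that stand for the states found with DMSO: KCNF1 with both marks, KCNA6 and KCNC1 with H3K27me3 alone, KCNG3 with H3K4me3 alone and KCNC2 with neither. KCNF1 encodes a modulatory subunit, KCNA6 a Kv1 channel and KCNC1 a fast Kv3 channel, KCNG3 a modulatory subunit and KCNC2 a further Kv3 channel. The sequences are RefSeq promoters of the GRCh38.p14 table, placed on GRCh37 by exact match, at chr2:11051810-11052059 (plus strand), chr12:4918250-4918499 (plus), chr11:17756078-17756327 (plus), chr2:42721123-42721372 (minus) and chr12:75603620-75603869 (minus) in that order. Capitals mark CpG dinucleotides, searched as CG, which reads the same on both strands.
KCNF1: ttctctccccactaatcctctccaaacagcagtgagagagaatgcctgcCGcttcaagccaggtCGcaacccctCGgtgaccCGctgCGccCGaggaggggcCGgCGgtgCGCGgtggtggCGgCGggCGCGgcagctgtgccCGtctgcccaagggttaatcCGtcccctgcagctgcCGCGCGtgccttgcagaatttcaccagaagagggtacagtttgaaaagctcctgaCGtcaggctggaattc
KCNA6: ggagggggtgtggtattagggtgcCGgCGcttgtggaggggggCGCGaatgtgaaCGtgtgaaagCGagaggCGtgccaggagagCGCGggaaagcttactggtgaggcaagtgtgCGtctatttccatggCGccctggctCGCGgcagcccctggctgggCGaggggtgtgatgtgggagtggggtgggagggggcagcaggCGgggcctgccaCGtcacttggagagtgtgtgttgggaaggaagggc
KCNC1: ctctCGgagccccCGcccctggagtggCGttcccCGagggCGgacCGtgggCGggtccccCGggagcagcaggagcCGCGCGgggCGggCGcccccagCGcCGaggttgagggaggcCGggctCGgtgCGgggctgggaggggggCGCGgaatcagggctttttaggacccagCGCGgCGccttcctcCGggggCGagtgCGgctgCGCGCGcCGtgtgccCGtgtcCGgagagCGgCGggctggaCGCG
KCNG3: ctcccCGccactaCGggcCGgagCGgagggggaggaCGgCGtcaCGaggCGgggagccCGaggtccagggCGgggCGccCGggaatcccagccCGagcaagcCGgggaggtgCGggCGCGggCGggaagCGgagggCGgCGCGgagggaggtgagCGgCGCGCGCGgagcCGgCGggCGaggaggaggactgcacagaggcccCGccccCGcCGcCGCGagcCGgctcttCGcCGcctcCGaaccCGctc
KCNC2: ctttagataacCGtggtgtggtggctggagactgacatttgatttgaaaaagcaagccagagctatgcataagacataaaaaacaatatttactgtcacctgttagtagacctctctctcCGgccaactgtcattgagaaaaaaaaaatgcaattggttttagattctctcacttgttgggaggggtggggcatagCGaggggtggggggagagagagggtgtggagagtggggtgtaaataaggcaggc
KCNF1 held 20 CpG in this stretch, KCNA6 16, KCNC1 36, KCNG3 40 and KCNC2 3. Over the full 300 bases of the table, which reach past the start, KCNC1 held 44, a number met by 5.77% of 15113 promoters, KCNG3 49, met by 2.1%, and KCNC2 4, met by 87%. The table held a promoter for 25 of the 35 members, with a median of 32 CpG (range 3 to 53) against 22 over all promoters.

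Median CpG counts by mark differed between the members and all genes. Among members with H3K27me3 alone at the start the median was 32.5 CpG (n = 14), against 10 over all such promoters (n = 1753). KCND3, a Kv4 channel, held 53 and KCNA7 45, whereas KCNA10 held 3, KCNA2 4 and KCNG4 6 in the same state. The 4 members with both marks had a median of 21.5, against 29 over all such promoters, and the 3 with neither had 5, against 4. Among those 3, the KCNH5 promoter (33 CpG) lies 56579 bp from the annotated gene start. At that annotated start KCNH5 had an H3K4me3 island in replicate 1. No test was made of the differences between medians.

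H3K27me3 covered the starts of most members with DMSO. A promoter island was present in both DMSO libraries for 25 of 35 members (71.4%), against 19.5% of all protein-coding genes. Standard normalization gave 24, with a background of 17.9%. With GSK126 there were 15 after spike-in normalization (background 9.9%) and 21 after standard normalization (background 14.3%). With DMSO after spike-in normalization all 8 Kv1 genes had one, as did all 3 Kv7 genes, 3 of 6 Kv2 to Kv4 genes, 5 of 8 Kv10 to Kv12 genes and 6 of 10 modulatory genes.

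For 13 members at least 75% of the gene and upstream region lay under islands in both DMSO libraries, against 6.87% of all genes. These were 7 of the 8 Kv1 genes (KCNA3 being the exception), KCND3, KCNH2, KCNH3, KCNF1, KCNG1 and KCNG2. The median covered share over the 35 members was 40.1%, against 0% over all genes, and it was 94.8% for Kv1, 20.4% for Kv2 to Kv4, 38.4% for Kv7, 41.9% for Kv10 to Kv12 and 11.1% for modulatory genes. At the other end, 8 members had no H3K27me3 island in any list, against 67.1% of all genes: KCNC2, KCNH5, KCNH7, KCNH8, KCNG3, KCNV2, KCNS1 and KCNS2. Of these, KCNC2, KCNV2, KCNS1 and KCNS2 had no island of either mark in any of the 14 lists (background 14.1%).

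**Figure D1:**
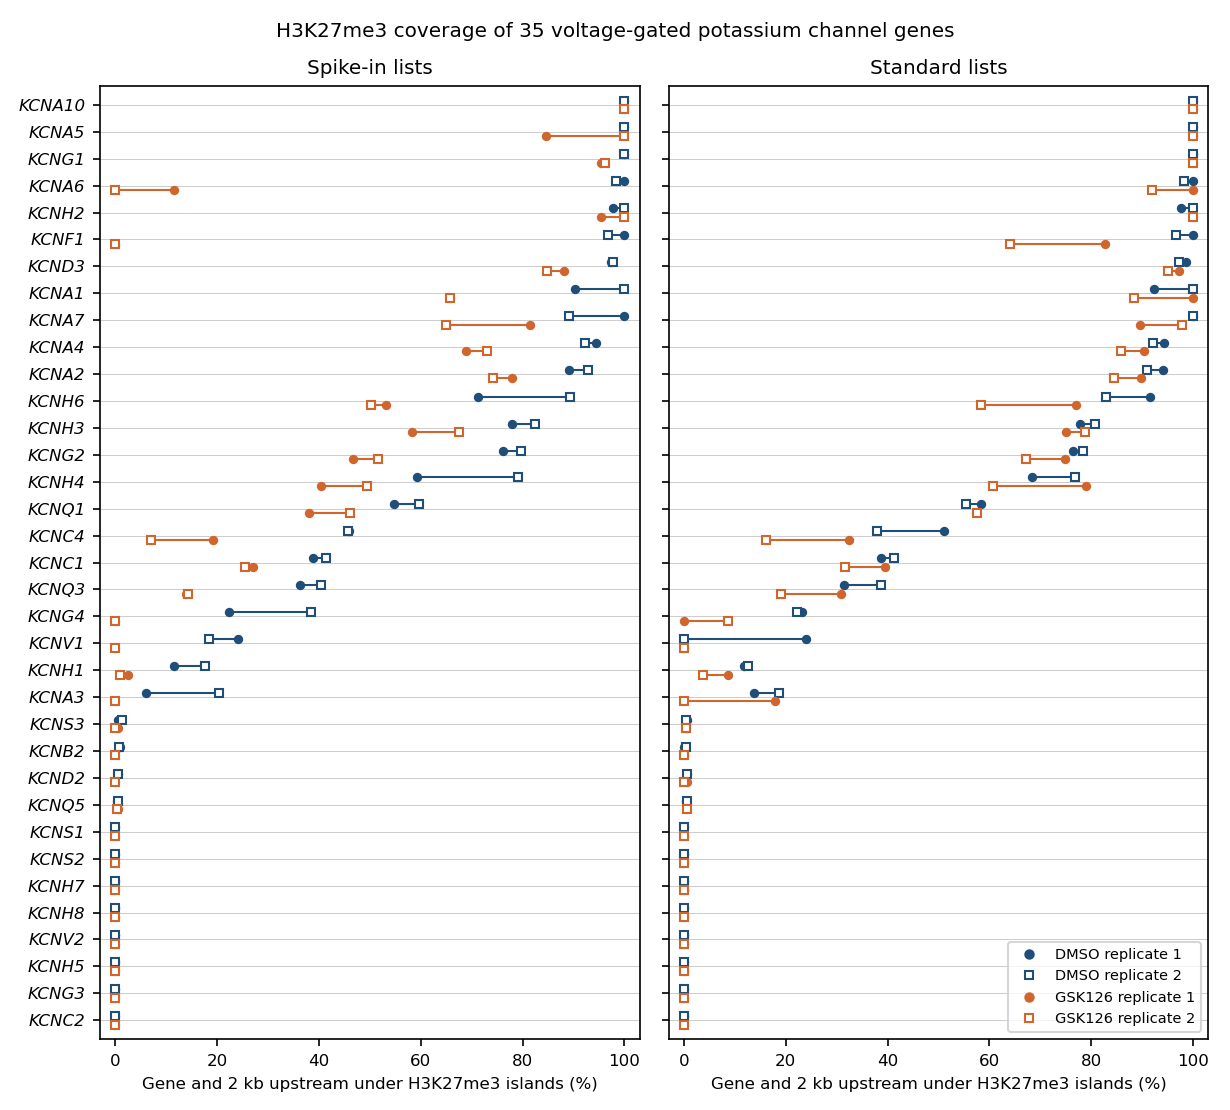
Share of each gene and its 2000 bp upstream under H3K27me3 islands (x axis, %) for the 35 members (y axis, ordered by their DMSO mean), in spike-in lists (left) and standard lists (right). Each point is a library, lines join replicates, and a square of replicate 2 hides an equal point of replicate 1. KCNA10, KCNG1 and KCNH2 stayed near full cover in every list, as did KCNA5 except for 84.6% with GSK126 in the spike-in list of replicate 1. KCNF1 stood at 0 with GSK126 after spike-in normalization and at over 60% after standard normalization.

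H3K27me3 cover was lower with GSK126 at most of the members that carried it, after spike-in normalization. Both GSK126 values lay below both DMSO values for 23 of 35 members (65.7%), against 24.1% of all genes, and none was higher (background 0.0695%). This call needs an island in both DMSO libraries, which 27 members had, and among genes with one the shares were close, 23 of 27 members (85.2%) against 86.9% of 5573 genes. Of the 27, 6 (22.2%) had no island left in either GSK126 library, against 32% of such genes and 8.84% of all genes, and 19 (70.4%) kept one in both, against 56%. Of 25 members with a promoter island, 8 lacked it in both GSK126 libraries (32%, against 34.8% of 3920 such genes and 6.78% of all genes), and 15 kept it in both (60%, against 50.6%). The 8 that lacked it were KCNA2, KCNA3, KCNA6, KCND2, KCNQ3, KCNF1, KCNG4 and KCNV1. After standard normalization none of 24 members with a promoter island lacked it in both GSK126 libraries. The same was seen at 370 of 3598 such genes, which are 1.84% of all genes.

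Summed over the members, H3K27me3 islands covered 1058 and 1155 kb with DMSO and 721 and 732 kb with GSK126 in replicates 1 and 2 after spike-in normalization. On the log2 scale, GSK126 stood to DMSO at −0.61 ± 0.07 (SD, n = 2), and over all protein-coding genes it was −1.06 ± 0.02. Both replicates gave a smaller drop for the members (−0.55 and −0.66) than for all genes (−1.05 and −1.08). The sum is carried by large genes, with KCNQ1, KCND3 and KCNQ3 the largest 3.

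After standard normalization islands covered 1076 and 1084 kb in the DMSO libraries and 1024 and 902 kb in the GSK126 libraries, a log2 ratio of −0.17 ± 0.14, against −0.31 ± 0.14 over all genes. By this normalization 10 members were lower (28.6%, against 11.1% of all genes), or 40% of the 25 with an island in both DMSO libraries, against 43.9% of 5101 such genes: KCNA2, KCNA4, KCNA7, KCNC4, KCNQ3, KCNH1, KCNH6, KCNF1, KCNG2 and KCNG4. None was higher (background 1.1%), and none of the 25 lacked an island in both GSK126 libraries, against 9.1% of such genes and 2.3% of all genes. The direction was thus shared by both normalizations, but the number of members called was 23 in one and 10 in the other.

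Kv1 subunits carry delayed and A-type currents in axons and muscle. KCNA10 lay under a single island in every list, 3.96 kb with DMSO and with GSK126 in both replicates and both normalizations. KCNA5, a channel of the atrium, was covered over 4.91 kb in both DMSO libraries and over 4.15 and 4.91 kb with GSK126 in replicates 1 and 2. These groups overlapped, so neither gene was called lower.

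KCNA2, a channel of myelinated axons, was covered over 101 and 105 kb with DMSO and over 88.5 and 84.3 kb with GSK126 (log2 ratio −0.26 ± 0.09, n = 2). Both GSK126 values were lower, yet the gene kept most of its cover. Its start did not after spike-in normalization, since the window around it held islands in both DMSO libraries and in neither GSK126 library. After standard normalization that window held 2896 and 2496 bp under islands with GSK126, against 3096 and 3001 bp with DMSO. KCNA2 and KCNA10 are neighbours and shared 1 H3K27me3 island in every list, so their values are not independent.

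KCNA1, KCNA4 and KCNA7 were intermediate and each was lower. KCNA1, whose channel limits firing in axons, had 9.35 and 10.4 kb with DMSO and 6.8 kb in both GSK126 libraries after spike-in normalization. KCNA4, a subunit of A-type currents, had 8.78 and 8.58 kb against 6.4 and 6.8 kb, and KCNA7 had 7.30 and 6.5 kb against 5.95 and 4.75 kb. After standard normalization KCNA4 and KCNA7 were again lower, with 8.4 and 7.98 kb and 6.55 and 7.15 kb with GSK126, and KCNA1 overlapped.

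KCNA6 and KCNA3 lost most or all of their cover after spike-in normalization. KCNA6 was covered over 5.98 and 5.88 kb with DMSO, and over 0.684 and 0 kb with GSK126 after spike-in normalization, whereas standard normalization left 5.98 and 5.50 kb. KCNA6 went from near full cover to almost none in one normalization and was called lower in that one only. KCNA3, the main voltage-gated channel of T lymphocytes, had 1.40 and 4.76 kb with DMSO and was listed at 0 in both GSK126 libraries, against 4.2 and 0 kb after standard normalization. Its island in DMSO replicate 1 scored under 2 times the minimum of that list, and without it KCNA3 was not called lower.

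All Kv1 genes of the list except KCNA4 and KCNA7 lie in 2 groups of neighbours. From KCNA6 to KCNA5 on chromosome 12 (chr12:4916500-5155954, 239 kb, with KCNA1 between them), H3K27me3 islands covered 85.2% and 88.6% with DMSO and 46.8% and 53.4% with GSK126 after spike-in normalization. After standard normalization GSK126 had 76.6% and 67.4%, against 88.4% and 86.2% with DMSO. No H3K4me3 island lay in this stretch in any list.

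From KCNA10 to KCNA3 on chromosome 1 (chr1:111059839-111219562, 160 kb), the covered share was 73.5% and 79.6% with DMSO and 57.1% and 54.4% with GSK126 after spike-in normalization. The GSK126 islands of these lists lay over KCNA10 and over KCNA2 away from its start. The side towards KCNA3, which held islands in both DMSO libraries, held none in them. After standard normalization GSK126 covered 71.5% and 61.8% of the stretch, against 79.1% and 76.0% with DMSO. In those lists both GSK126 libraries held an H3K27me3 island over the start of KCNA2. An island over KCNA3 was present with GSK126 in replicate 1 alone.

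**Figure D2:**
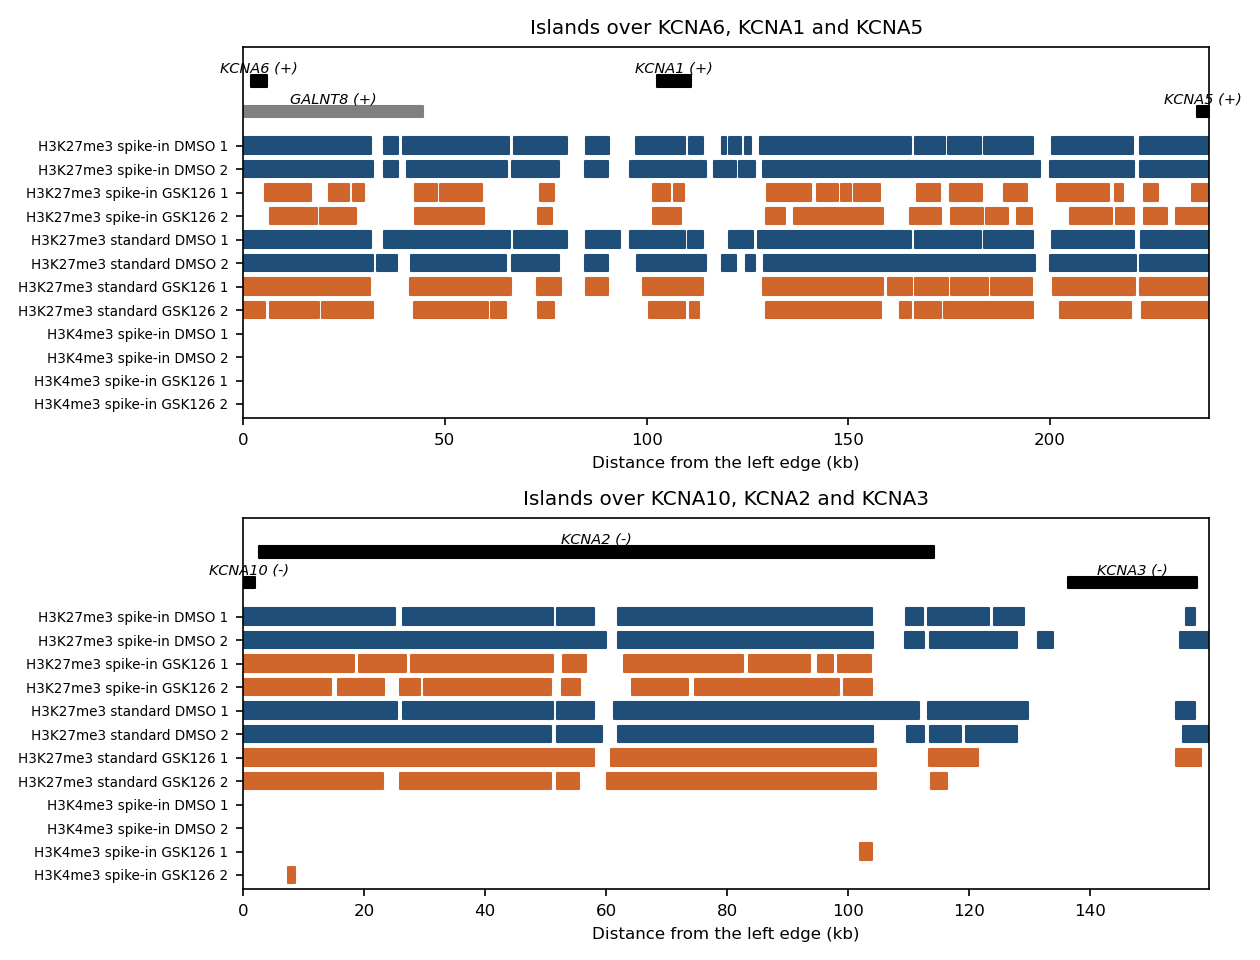
Islands over the KCNA6, KCNA1 and KCNA5 stretch (top) and the KCNA10, KCNA2 and KCNA3 stretch (bottom), by distance from the left edge in kb (x axis). Each line is a list named by mark, normalization, treatment and replicate, bars are islands (blue for DMSO, orange for GSK126), and black and grey bars above are member and other protein-coding genes with their strand. With GSK126 after spike-in normalization the blocks broke into shorter islands on the top map and receded from the right-hand side on the bottom map.

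Kv2 to Kv4 subunits carry delayed rectifier, fast and transient currents. KCND3, which carries the transient outward current of the heart, was covered over 215 and 216 kb with DMSO and over 195 and 187 kb with GSK126 (log2 ratio −0.17 ± 0.05). It was called lower, and lost little. KCNC1 had 48.1 and 51.3 kb with DMSO and 33.5 and 31.7 kb with GSK126, and its start kept an island in every list.

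KCNC4, a Kv3 channel, had 34.4 and 34.1 kb with DMSO and 14.4 and 5.20 kb with GSK126 (−1.98 ± 1.03), and 38.2, 28.3, 24.3 and 12.1 kb in that order after standard normalization. It was lower in both. KCND2, a Kv4 channel of dendrites, had small H3K27me3 islands of 2.60 and 2.40 kb in the DMSO libraries and was listed at 0 with GSK126 after spike-in normalization. KCNB2, a Kv2 channel, had 3.38 and 2.80 kb far inside the gene with DMSO and was listed at 0 with GSK126.

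Kv7 subunits carry the slow current of the heart (KCNQ1) and the M-current that restrains neurons (KCNQ3 and KCNQ5). KCNQ1 was covered over 222 and 242 kb with DMSO and over 155 and 187 kb with GSK126 after spike-in normalization (−0.45 ± 0.11). After standard normalization it had 237 and 225 kb with DMSO and 233 and 234 kb with GSK126, groups that overlapped. Its call thus rested on the normalization.

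KCNQ3 was lower in both, with 132 and 147 kb with DMSO against 50.6 and 51.4 kb with GSK126 after spike-in normalization (−1.45 ± 0.09). Standard normalization gave 114 and 140 kb with DMSO against 112 and 68.9 kb. KCNQ5 had 1.80 and 3.40 kb at its start with DMSO and 2.60 and 2.0 kb with GSK126, and these overlapped.

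Kv10 to Kv12 subunits include the EAG channels (KCNH1 and KCNH5) and the ELK channels (KCNH3, KCNH4 and KCNH8). They also include the ERG channels (KCNH2, KCNH6 and KCNH7), of which KCNH2 repolarizes the heart. KCNH2 was covered over 34.6 and 35.4 kb with DMSO and over 33.8 and 35.4 kb with GSK126 after spike-in normalization, and the groups overlapped. KCNH1 was at the other end, with 53.2 and 81.0 kb with DMSO and 11.0 and 4.40 kb with GSK126 (−3.24 ± 1.36). After standard normalization it had 54.2 and 57.6 kb against 40 and 17 kb, and was again lower.

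KCNH3 had 16.6 and 17.6 kb with DMSO and 12.4 and 14.4 kb with GSK126 (−0.35 ± 0.09). KCNH4 had 15.6 and 20.8 kb against 10.6 and 13 kb, and KCNH6 had 19.7 and 24.7 kb against 14.7 and 13.9 kb. KCNH6 was also lower after standard normalization, with 25.3 and 22.9 kb against 21.3 and 16.1 kb. The 4 genes called lower in this class were KCNH1, KCNH3, KCNH4 and KCNH6.

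Of the modulatory genes, 6 were called lower after spike-in normalization. KCNF1 (chr2:11052060-11054351) had 4.29 and 4.15 kb with DMSO and was listed at 0 in both GSK126 libraries, against 3.55 and 2.75 kb with GSK126 after standard normalization. KCNG4 had 5.20 and 9.0 kb with DMSO and was listed at 0 with GSK126, and had 5.40 and 5.20 kb against 0 and 2.0 kb after standard normalization. It was the sole member to be at least 2 times lower in each replicate after standard normalization, 4% of the 25 with an island in both DMSO libraries, against 15.7% of such genes and 3.98% of all genes. Spike-in normalization gave 10 of 27 such members (37%), against 56.3% of such genes and 15.6% of all genes.

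KCNG1 was lower by a small margin, with 21.5 kb in both DMSO libraries and 20.5 and 20.7 kb with GSK126 (−0.06 ± 0.01). KCNG2 had 79.4 and 83.1 kb with DMSO and 48.7 and 53.8 kb with GSK126 (−0.67 ± 0.06). KCNS3 had 2.49 and 6.09 kb with DMSO and 2.29 and 0 kb with GSK126, and KCNV1 had 3.40 and 2.60 kb and was listed at 0 with GSK126. Both of these are modulatory subunits of Kv2 channels, and each had an H3K27me3 island at its start with DMSO. The values of KCNV1, KCND2 and KCNB2 rest on low-scoring islands. None had any cover left in the 4 libraries once islands under 2 times the minimum score of a list were dropped. After standard normalization KCNV1 was also at 0 in DMSO replicate 2 and KCNB2 in DMSO replicate 1. KCND2 had 2.40 kb in GSK126 replicate 1 after standard normalization.

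By class, the log2 ratio of the summed cover after spike-in normalization was −0.36 ± 0.10 for Kv1, −0.39 ± 0.09 for Kv2 to Kv4, −0.74 ± 0.05 for Kv7, −0.95 ± 0.27 for Kv10 to Kv12 and −0.73 ± 0.04 for modulatory genes (SD, n = 2). After standard normalization these were −0.09 ± 0.07, −0.13 ± 0.08, −0.14 ± 0.18, −0.38 ± 0.31 and −0.18 ± 0.05, so that the Kv7 value was smaller than the spread between replicates. The sums are weighted by large genes, such as KCND3 in Kv2 to Kv4 and KCNA2 in Kv1. Counts by gene gave another order. After spike-in normalization 2 of 8 Kv1, 3 of 6 Kv2 to Kv4 and 1 of 3 Kv7 members were at least 2 times lower in each replicate. The same held for 1 of 8 Kv10 to Kv12 and 3 of 10 modulatory members, against 15.6% of all genes. The differences between classes were not tested.

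With DMSO the members had more H3K27me3 cover at their starts than further away. In the 1 kb before the start, islands covered on average 61.7% and 67.5% of the bin over the members with DMSO, and 43.4% and 30.2% with GSK126 after spike-in normalization. Between 6 and 5 kb before the start the DMSO libraries had 32.0% and 31.6% and the GSK126 libraries 11.4% and 18.1%. After standard normalization the bin before the start had 61.4% and 63.2% with DMSO and 57.7% and 53.1% with GSK126, so that the GSK126 libraries were lower in both replicates and by less.

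**Figure D3:**
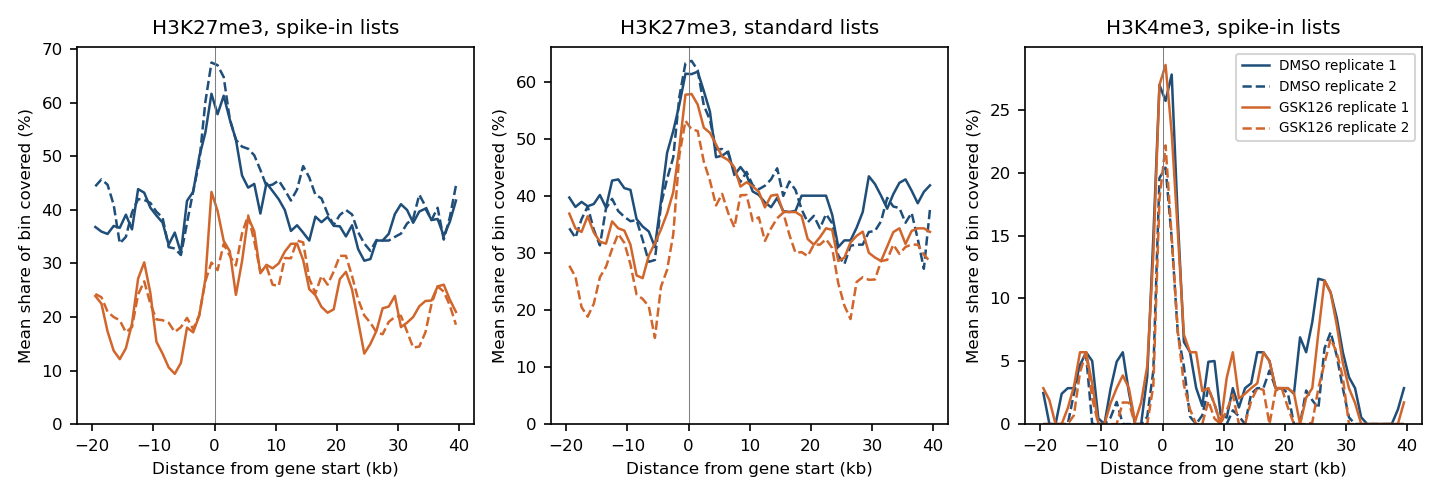
Mean share of each 1 kb bin covered by islands over the 35 members (y axis, %) from 20 kb before to 40 kb after the gene start (x axis, in the direction of transcription), for H3K27me3 in spike-in lists, H3K27me3 in standard lists and H3K4me3 in spike-in lists. Blue lines are DMSO, orange lines GSK126, solid lines replicate 1 and broken lines replicate 2. H3K27me3 lines peak at the start except for GSK126 replicate 2 in spike-in lists, and the DMSO libraries reached 61.7% and 67.5% in the bin before it, and H3K4me3 lines form a narrower peak at the start that was set apart by replicate more than by treatment.

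H3K4me3 marked the starts of few members. A promoter island was present in both DMSO libraries for 9 of 35 members, against 60.5% of all genes: KCNC4, KCND2, KCNQ5, KCNH3, KCNH8, KCNF1, KCNG3, KCNV1 and KCNS3. The same 9 had one in both GSK126 libraries (background 60% after spike-in normalization). None of the Kv1 genes had one.

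The longest H3K4me3 cover was on KCNC4, with 22.5 and 9.20 kb with DMSO and 18.5 and 5.80 kb with GSK126. KCNQ1 had 8.60 and 4.2 kb with DMSO and 6.60 and 4.40 kb with GSK126, and KCNS3 had 6.89 and 2.60 kb and 4.80 and 3.60 kb. Replicate 1, the deeper of the pair, had the longer cover in each case, and the treatments overlapped.

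KCNG3 had 4.32 and 2.60 kb with DMSO and 4.72 and 2.60 kb with GSK126, over a start region that also holds the start of MTA3, a gene on the other strand. KCNH3 had 3.60 and 3.20 kb against 3.20 and 1.40 kb, and KCNV1 had 3.60 and 2.80 kb against 3.40 and 2.60 kb. KCNF1 had 3.15 and 1.00 kb with DMSO and 3.95 and 2.80 kb with GSK126 after spike-in normalization. This was a higher value in each replicate, but the groups overlapped. Standard normalization gave 3.15 and 2.95 kb with GSK126, so that replicate 1 did not change.

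No member was lower in H3K4me3 after spike-in normalization (background 1.17%) or after standard normalization (background 1.37%). KCNA2 was the sole member called higher, with no island with DMSO and 2.0 and 1.2 kb with GSK126 (background 0.144%), and again after standard normalization (background 0.169%). Its islands lay at different places in the 2 libraries, 10.3 to 12.3 kb into the gene in replicate 1 and 105.7 to 106.9 kb in replicate 2, so no island was shared by both replicates. The summed H3K4me3 cover of the members was 73.7 and 35 kb with DMSO and 66.9 and 33.6 kb with GSK126 (log2 ratio −0.10 ± 0.06, against −0.17 ± 0.01 over all genes), and −0.04 ± 0.13 after standard normalization.

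Some members had both marks at the start. With DMSO 6 members (17.1%) had both promoter islands in both replicates, against 6.07% of all genes: KCND2, KCNQ5, KCNH3, KCNF1, KCNV1 and KCNS3. With GSK126 after spike-in normalization 2 remained, KCNQ5 and KCNH3 (5.71%, against 2.59%), so that the share was lower in members and in all genes. The other 4 kept H3K4me3 in both GSK126 libraries, and KCNS3 also kept an H3K27me3 promoter island in replicate 1 but not in replicate 2. After standard normalization 5 members had both with DMSO (14.3%, against 5.48%) and 4 with GSK126 (11.4%, against 4.09%). H3K27me3 alone marked 18 members with DMSO (background 12.4%), H3K4me3 alone 2, KCNH8 and KCNG3 (background 52.8%), and neither mark 6 (background 22.3%).

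Of the 6 members with both marks at the start, all of the H3K4me3 cover of KCNF1 and KCNH3 lay under H3K27me3 islands in both DMSO libraries. The share was 72.2% and 70% for KCND2, 72.2% and 92.9% for KCNV1, 35.3% and 90.9% for KCNQ5, and 36.1% and 23.1% for KCNS3 in replicates 1 and 2. Over all members that carried both marks anywhere, 13 in replicate 1 and 10 in replicate 2, it was 36.7% and 43.3%. Islands in the same list of a cell population do not show that both marks were on the same allele.

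In KCNC4 and KCNQ1 the marks lay in separate parts of the gene. The H3K4me3 islands of KCNC4 with DMSO ran from 2.13 kb before the start to 27.7 kb into the gene in replicate 1, and H3K27me3 began at 29.9 kb, apart from an island over the start in that replicate alone. In replicate 2, H3K4me3 ended at 24.7 kb and H3K27me3 began at 32.7 kb. KCNQ1 (chr11:2465884-2870335) had no H3K27me3 island from 149.9 to 259.7 kb into the gene in replicate 1, nor from 151.7 to 259.3 kb in replicate 2. An H3K4me3 island of 4.0 and 2.8 kb lay within that gap (chr11:2718801-2722800 in replicate 1), over the starts of KCNQ1OT1, a long noncoding RNA that is antisense to KCNQ1, and none of the H3K4me3 cover of KCNQ1 lay under H3K27me3.

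**Figure D4:**
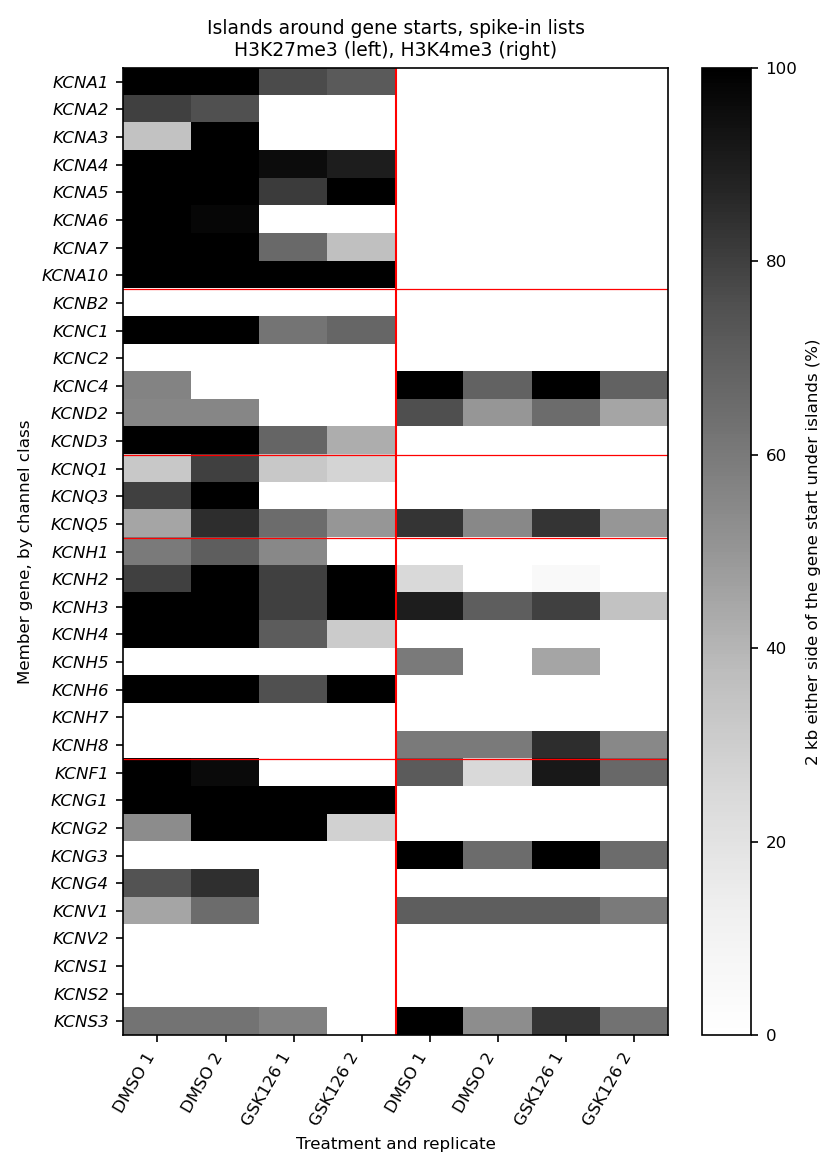
Share of the 2000 bp on either side of each gene start under islands (grey scale, 0 to 100%) for the 35 members (y axis, with red lines between the Kv1, Kv2 to Kv4, Kv7, Kv10 to Kv12 and modulatory classes) in the spike-in lists. The left columns are H3K27me3 and the right columns H3K4me3, each with DMSO and GSK126 in replicates 1 and 2. Dark H3K27me3 cells fill the Kv1 rows with DMSO, except for a lighter cell of KCNA3 in replicate 1. The Kv1 rows are empty for H3K4me3, and the 9 members with H3K4me3 at the start in both DMSO libraries kept it with GSK126.

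Genes of accessory subunits, of other channels and of receptors were counted in the same way. Of 14 accessory subunits of Kv channels, 9 were lower after spike-in normalization (64.3%), and of 38 other potassium channels 24 (63.2%). Of 20 sodium and calcium channel pore subunits 15 were lower (75%), and of 45 GABA-A and glutamate receptor genes 23 (51.1%). The background was 24.1% of all genes, or 86.9% of those with an island in both DMSO libraries. Such an island, which the call needs, was present for 9, 26, 15 and 25 genes of these lists in that order. H3K27me3 promoter islands were present in both DMSO libraries for 4 of the 14 accessory genes and for 23 of the 38 other potassium channels. The same held for 8 of the 20 sodium and calcium channel genes and for 17 of the 45 receptor genes (background 19.5%). The log2 ratio of the summed cover was −1.34 ± 0.19 for accessory subunits, −0.92 ± 0.01 for other potassium channels, −0.71 ± 0.02 for sodium and calcium channels and −0.96 ± 0.11 for the receptors. The members' −0.61 ± 0.07 was nearest to that of the sodium and calcium channels, and these differences were not tested.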

How the data were processed

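ChIP-seq of H3K27me3 and H3K4me3 in PC9 cells was analysed from 14 island lists of 8 libraries. Each deposited list gives island positions and the SICER score that the authors computed, a sum over windows of 200 bp of −ln(p), with p the Poisson probability of the tag number. The authors aligned 50-nt tags to hg19 with BWA, kept unique tags without duplicates (SAMtools 0.1.18 is named in the submitters' processing notes), removed human tags at random for either normalization, and called islands per library with SICER at an E-value of 1 and gaps of 600 bp (H3K27me3) or 200 bp (H3K4me3). The DMSO libraries of H3K4me3 had a single list, which served both normalizations. Thinning to fewer tags shortens or removes islands, and the lists hold no counts, so no interval per island was computed.

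Covered lengths were computed with Python 3.11.15, NumPy 2.4.6 and pandas 2.3.3 over GENCODE v44 genes mapped to GRCh37, using the longest record of each symbol, and checked on simulated islands. Tag densities were fitted from the scores with SciPy 1.17.1 and tested on simulated data. Plots were drawn with Matplotlib 3.10.9. Groups were taken from the labels, and the replicate pairs from the library names in the study's sample table. Tags had been removed within these pairs. The study calls its replicates biological, and the SD is the spread between the 2 libraries of a group. Values in every library are given by rule for the 6 members with the largest H3K27me3 cover, for the 6 with the lowest and the 6 with the highest log2 ratio among those with at least 4 kb of cover, and for the 6 with the largest H3K4me3 cover. Other members given with values were chosen after their values were seen. The members, the gene lists and the rules were chosen with earlier results of these data known.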

Additional observations from a re-analysis of the deposited data

How the results depend on the processing

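Of 280 values recomputed under alternatives, 222 moved by less than the SD between replicates or, for a count, by at most 1.5 times. The log2 ratio of H3K27me3 cover after spike-in normalization became −0.68 with islands scoring at least 2 times the lowest score of their list, and −0.91 within 2000 bp of the gene start. That of H3K4me3 became −0.0038 and −0.0369 under the same alternatives, and after standard normalization it ranged from −0.14 to 0.0467 when a replicate was left out, turning positive without replicate 1. Members lower by at least 2 times in each replicate (the replicate block) numbered 10 after spike-in and 1 after standard normalization, and leaving out a replicate gave 16 to 19 lower after standard normalization, since a single pair is a looser rule. Members with both promoter islands numbered 3 with the score filter and 3 when islands had to cover 50% of the window. The median covered share was 35.6% with the score filter and 76.7% in the start window. At the start of KCNG2, mean H3K27me3 cover with GSK126 exceeded that with DMSO by 29.99 percentage points after standard normalization. The replicates went opposite ways, with GSK126 above DMSO in replicate 1 and below it in replicate 2. The cause of these shifts was not tested. Without the replicate block the 4 summed log2 ratios were −0.61, −0.16, −0.11 and −0.07, and lower within each replicate held for 23 and 13 members. With 2 libraries a group and shallow H3K4me3 libraries in replicate 2, an island missing from a list was not detected at that depth and is not shown to be absent.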

Other observations

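Some H3K4me3 islands of the members lay away from any annotated transcript start. KCNG4, which encodes a modulatory subunit, had such an island in all 4 spike-in libraries, at 10.8 to 12.4 kb and 11.6 to 12.2 kb into the gene with DMSO and at 10.4 to 12.4 kb and 10.6 to 11.8 kb with GSK126, past the end of the H3K27me3 island that covered its start with DMSO. KCNH2 had one from 1.01 to 5.01 kb and from 2.01 to 4.21 kb into the gene with DMSO, under H3K27me3 in both libraries. KCNC4 had islands of 6.6 and 5.8 kb in replicate 1 and of 3.6 and 1.6 kb in replicate 2 between 14.9 and 27.7 kb into the gene with DMSO, and KCNQ1 had islands of 2.0 and 1.4 kb between H3K27me3 islands (chr11:2554201-2556200 in replicate 1). The H3K4me3 cover counted for KCNH4 (0.092 kb) and KCNH6 (0.538 kb) with DMSO in replicate 1 was the edge of islands over the starts of their 3′ neighbours RAB5C and DCAF7. KCNH5 had an H3K4me3 island at its start in replicate 1, with 2.40 kb with DMSO and 1.80 kb with GSK126, and none in replicate 2, the shallower pair.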
